A study of Rattus norvegicus with 18 samples.

Results

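The 10 genes described here mark the endothelium of the kidney: Kdr, Flt1, Tek, Eng, Pecam1, Cdh5, Emcn, Plvap, Ehd3 and Vwf. They were chosen by name from a table of 32116 rat genes. The table names 9 of them, and Flt1 has a row that carries only its Ensembl identifier, ENSRNOG00000000940, and was found through its description as the rat Flt1 product. All 10 genes were tested. RNA from whole kidneys was sequenced in 18 libraries, 6 per group. NC rats were untreated. CKD rats received adenine (100 mg/kg each day), and SZ rats received adenine in the same amount plus SZ-A (300 mg/kg each day), so the CKD and SZ groups share adenine. The sources used here do not say what SZ-A is, nor the strain, sex and age of the rats. Nothing in the labels ties each library to an animal of its own, so p-values reflect only variation among libraries, part of which may be technical.

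Endothelial cells line every renal vessel, and they differ along the vascular tree. Those of the glomerulus are fenestrated and depend on vascular endothelial growth factor A (VEGF-A) made by podocytes, while those of the peritubular capillaries lie against the tubules, which also make VEGF-A. VEGF-A acts through the receptors encoded by Kdr and Flt1, and the angiopoietins act through the receptor encoded by Tek. In whole kidney RNA, fewer cells of a type and less RNA per cell cannot be told apart.

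Promoter sequences of the genes that fell most (Kdr, Flt1, Emcn and Ehd3) and of a gene not called in any comparison (Plvap) are shown for reference beside the differences below. Each is the 250 bases before the start of the gene in RefSeq's GRCr8 annotation, written 5′ to 3′ on the strand of the gene. The positions are chr14:32571813-32572062 (plus strand) for Kdr, chr12:12333180-12333429 (plus) for Flt1, chr2:228564289-228564538 (plus) for Emcn, chr6:27417446-27417695 (minus) for Ehd3 and chr16:18231280-18231529 (minus) for Plvap. Capitals mark GGAAG, 1 form of the motif that ETS factors such as Erg and Fli1 read, or its reverse complement CTTCC.
Kdr: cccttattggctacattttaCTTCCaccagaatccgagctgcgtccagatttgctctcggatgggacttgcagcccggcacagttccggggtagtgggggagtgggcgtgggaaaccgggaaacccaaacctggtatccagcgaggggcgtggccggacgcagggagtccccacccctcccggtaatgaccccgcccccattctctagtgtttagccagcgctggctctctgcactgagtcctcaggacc
Flt1: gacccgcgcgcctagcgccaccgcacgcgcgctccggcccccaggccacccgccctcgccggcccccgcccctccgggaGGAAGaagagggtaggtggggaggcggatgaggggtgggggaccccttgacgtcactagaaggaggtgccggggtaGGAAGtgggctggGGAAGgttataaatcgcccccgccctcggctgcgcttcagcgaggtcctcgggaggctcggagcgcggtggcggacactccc
Emcn: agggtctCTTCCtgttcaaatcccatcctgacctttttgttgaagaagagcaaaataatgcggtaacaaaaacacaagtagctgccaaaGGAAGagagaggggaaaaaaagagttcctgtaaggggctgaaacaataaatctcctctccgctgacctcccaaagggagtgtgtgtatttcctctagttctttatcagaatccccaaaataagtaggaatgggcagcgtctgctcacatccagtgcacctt
Ehd3: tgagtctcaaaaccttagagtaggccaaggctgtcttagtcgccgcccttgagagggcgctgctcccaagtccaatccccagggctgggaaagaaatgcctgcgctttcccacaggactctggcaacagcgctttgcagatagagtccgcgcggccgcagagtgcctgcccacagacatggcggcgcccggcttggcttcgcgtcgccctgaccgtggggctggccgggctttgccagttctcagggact
Plvap: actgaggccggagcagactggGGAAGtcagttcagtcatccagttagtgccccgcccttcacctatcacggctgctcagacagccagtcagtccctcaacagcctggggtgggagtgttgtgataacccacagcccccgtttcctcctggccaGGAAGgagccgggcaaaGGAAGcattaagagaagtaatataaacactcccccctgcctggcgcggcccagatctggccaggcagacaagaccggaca
RefSeq promoters were matched for 6 of the 10 genes, the sixth being Eng. GGAAG or CTTCC was found 3 times in Flt1 and Plvap, 2 times in Emcn and Eng, 1 time in Kdr and 0 times in Ehd3. This string, on either strand, is in 63.3% of the 33469 promoter windows of the same table, and a match is a run of letters, not a site of binding. AGATAA, 1 form of the GATA motif, was found in 0 of the 6, against 10.3% of all windows. Other forms of the ETS and GATA motifs were not counted. Pecam1, Cdh5, Tek and Vwf are named only.

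Levels are in FPKM (fragments per kilobase of gene, scaled for depth by the authors). This is per length, so genes can be compared, but only roughly. The slope of log2 level on gene length still differed between libraries, from -0.31 per doubling of length in CKD 5 to 0.11 in NC 6. In NC kidneys Plvap, Emcn and Eng were highest, at 48.4 ± 7.55, 44.9 ± 7.70 and 36.1 ± 6.59 FPKM (mean ± SD, n = 6), and the ranges of these neighbours overlapped. The next 6 genes ran from Pecam1 at 23.6 ± 3.33 to Cdh5 at 7.73 ± 1.57, each overlapping its neighbour in the order Pecam1, Ehd3, Kdr, Tek, Flt1, Cdh5. Vwf, the clotting factor that larger vessels store and secrete, was lowest at 3.88 ± 0.989 and below the range of its neighbour in NC. In CKD kidneys the order was Plvap, Eng, Emcn and Pecam1, then Ehd3, Tek, Cdh5, Kdr and Flt1 in overlapping ranges, then Vwf. In SZ kidneys Plvap and Eng stood above Emcn and Pecam1, which stood above Kdr, Tek, Ehd3, Cdh5 and Flt1. Between 15354358 and 18532375 reads were recovered per library, and Vwf, with the lowest median, held between 287 and 775 reads.

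**Figure D1:**
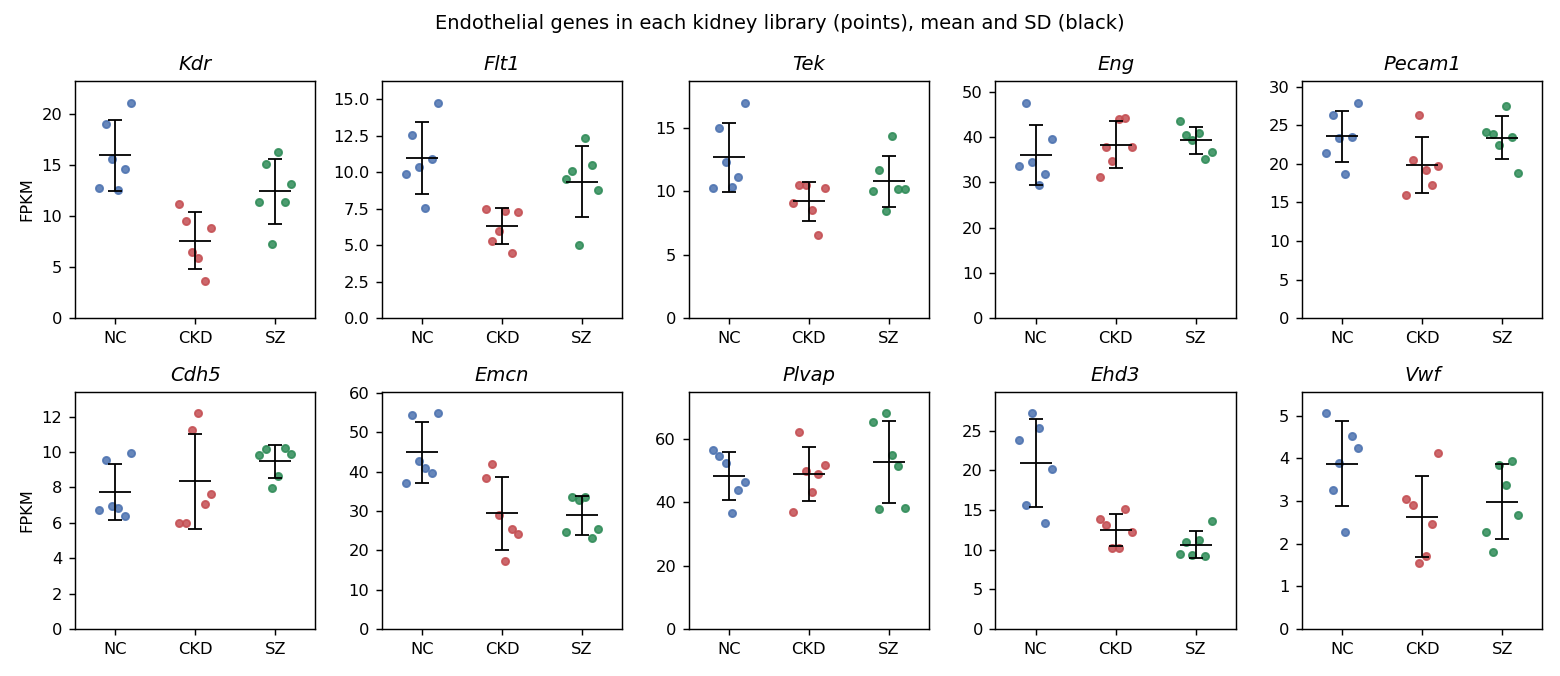
FPKM of each endothelial gene (vertical axis, from 0) in each of the 18 kidney libraries by group. Points are libraries and black lines are the mean and SD of 6. Kdr and Flt1 have no CKD library within the NC range, and Plvap, Eng and Cdh5 have overlapping groups.

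Kdr, Flt1 and Tek fell in CKD against NC kidneys. Kdr, the main signalling receptor for VEGF-A, ran from 12.6 to 21.1 FPKM in NC (median 15.1), from 3.62 to 11.2 in CKD (median 7.68) and from 7.27 to 16.2 in SZ (median 12.3). No CKD library reached the lowest NC library, and SZ overlapped both. Kdr fell by 1.03 on the log2(FPKM + 1) scale in CKD against NC (95% interval -1.48 to -0.57, limma, adjusted p = 7.0e-04). Flt1, the receptor that binds VEGF-A tightly and is also made as a soluble decoy, ran from 7.55 to 14.8 FPKM in NC (median 10.6), 4.50 to 7.51 in CKD (median 6.63) and 4.99 to 12.3 in SZ (median 9.81). It fell by 0.71 on the log2 scale (limma, adjusted p = 0.0029), again with no overlap between CKD and NC. Tek, the receptor for angiopoietins, ran from 10.3 to 17.0 FPKM in NC (median 11.7), 6.57 to 10.5 in CKD (median 9.67) and 8.43 to 14.3 in SZ (median 10.1), and its groups overlapped. It fell by 0.41 (limma, adjusted p = 0.022). This Tek call was lost without NC 2 (adjusted p = 0.052), NC 6 (0.061) or CKD 5 (0.058) in the limma fit.

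Emcn and Ehd3 also fell in CKD against NC. Emcn encodes endomucin, a sialoglycoprotein of capillary and venous endothelium, and ran from 37.1 to 54.8 FPKM in NC (median 41.8), 17.2 to 42.0 in CKD (median 27.2) and 23.1 to 33.6 in SZ (median 29.0). Its log2 difference from NC was -0.64 in CKD (limma, adjusted p = 0.0062) and -0.62 in SZ (limma, adjusted p = 0.019). The SZ call was lost under TPM scaling (-0.33, adjusted p = 0.105) and plain library totals (-0.41, adjusted p = 0.069). No SZ library reached the lowest NC library, while the highest CKD libraries did. Ehd3, an endocytic recycling ATPase enriched in glomerular endothelium, ran from 13.4 to 27.2 FPKM in NC (median 22.0), 10.2 to 15.2 in CKD (median 12.7) and 9.16 to 13.7 in SZ (median 10.3). Both groups overlapped NC, in which 5 of 6 libraries stood above every CKD and SZ library. The log2 difference was -0.67 in CKD (adjusted p = 0.0017) and -0.88 in SZ (adjusted p = 6.5e-04), both from limma.

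The other 5 genes were not called in CKD against NC, but Pecam1 was called lower without NC 4 or CKD 3, and Vwf without NC 4 or CKD 6. Pecam1, an adhesion molecule also made by leukocytes and platelets, had a log2 difference of -0.24 (95% interval -0.50 to 0.009, limma, adjusted p = 0.10), with 15.9 to 26.4 FPKM in CKD against 18.7 to 28.0 in NC. Vwf had a difference of -0.44 (limma, adjusted p = 0.060). Eng, a co-receptor for BMP9 and TGF-beta, ran from 29.4 to 47.6 FPKM in NC and 31.1 to 44.3 in CKD, and its interval was -0.15 to 0.33. Cdh5, the cadherin of endothelial junctions, had an interval of -0.26 to 0.40. Plvap, which forms the diaphragms of fenestrae and caveolae, ran from 36.5 to 56.6 FPKM in NC and 36.8 to 62.2 in CKD, with an interval of -0.33 to 0.34. These intervals bound the size of a difference and do not show that levels were equal.

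Of the 10 genes, 5 were called lower and 0 higher in CKD against NC, where 50.3% of all 13851 genes tested were called, 26.0% lower and 24.4% higher. The median log2 difference of the 10 was -0.43, and that of all genes tested -0.040. Kdr and Flt1, the genes with no overlap between CKD and NC, make 2 of 10, and 12.2% of all genes were lower without overlap. The size of these falls depends on how libraries are scaled, because the deposited scaling centres most genes. With TPM scaling or plain library totals the median of all genes moves to 0.37 or 0.25, so the shift touches every gene. TPM scaling called 7860 genes, 83.7% of them higher, and plain totals 7709, 77.6% of them higher. Kdr still fell (-0.65 and -0.71) but Flt1, Tek, Emcn and Ehd3 were no longer called. Under TPM scaling Eng (0.54) and Plvap (0.46) were called higher, and under plain totals Eng (0.43).

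**Figure D2:**
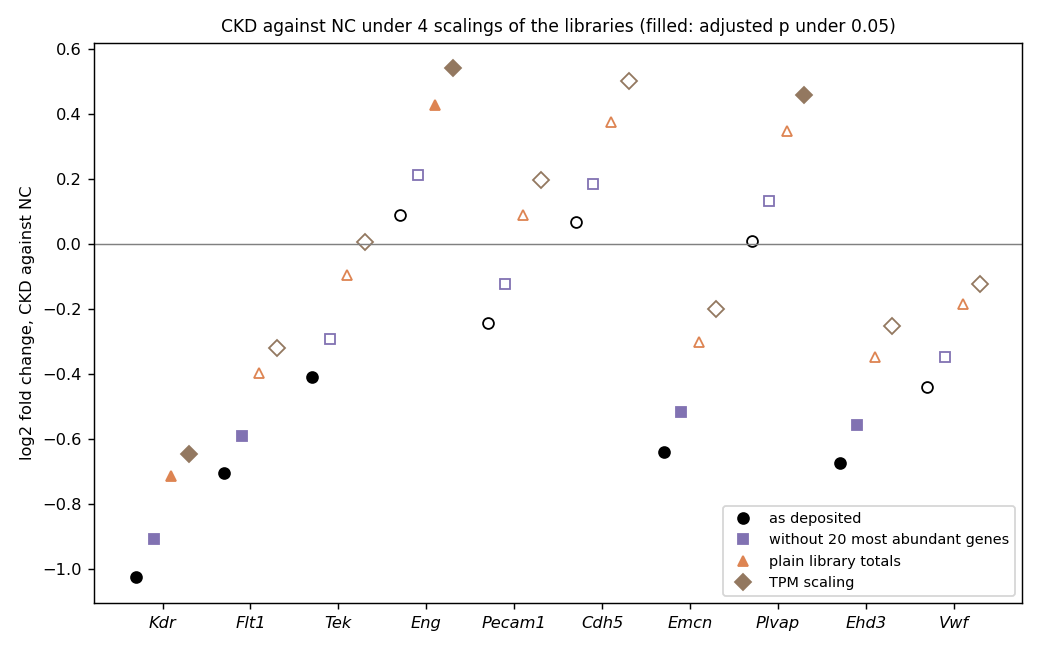
Log2 difference of CKD against NC (vertical axis) of each gene under 4 ways of scaling the libraries, with filled points where the limma adjusted p was under 0.05. Kdr is filled under all 4, and every gene moves up from the deposited scaling to TPM scaling.

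In SZ against CKD, 0 of the 10 genes passed the test with limma after adjustment, where 11.0% of all genes tested did, 6.82% lower and 4.16% higher. At an unadjusted p under 0.05 there were 2, Kdr and Flt1, and limma voom on recovered reads called 1, Kdr. The differences were 0.67 for Kdr (95% interval 0.22 to 1.13, limma, adjusted p = 0.0504) and 0.48 for Flt1 (0.11 to 0.85, adjusted p = 0.082). The remaining 8 lay between -0.21 for Ehd3 and 0.24 for Pecam1. SZ 3 had the lowest Kdr and Flt1 of its group, and without it both were called, at 0.81 (adjusted p = 0.014) and 0.63 (adjusted p = 0.010) in limma. Kdr was also called without CKD 1, CKD 2 or CKD 6 (0.79, 0.75 and 0.73). In SZ against NC, 2 genes, Ehd3 and Emcn, were called lower and 0 higher, beside 21.1% of all genes called, 8.61% lower and 12.5% higher. Emcn was lower without overlap, as were 5.70% of all genes. Under TPM scaling 1 gene, Ehd3, was called lower and 1, Eng, higher (0.44, limma, adjusted p = 0.044). The median of all genes in SZ against NC moved to 0.24 under that scaling, so part of the Eng difference is shared by most genes. With the deposited scaling Kdr had a difference of -0.35 in SZ against NC, with an interval of -0.80 to 0.10. The CKD and SZ groups are each compared with the same NC libraries, so these differences are not independent.

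**Figure D3:**
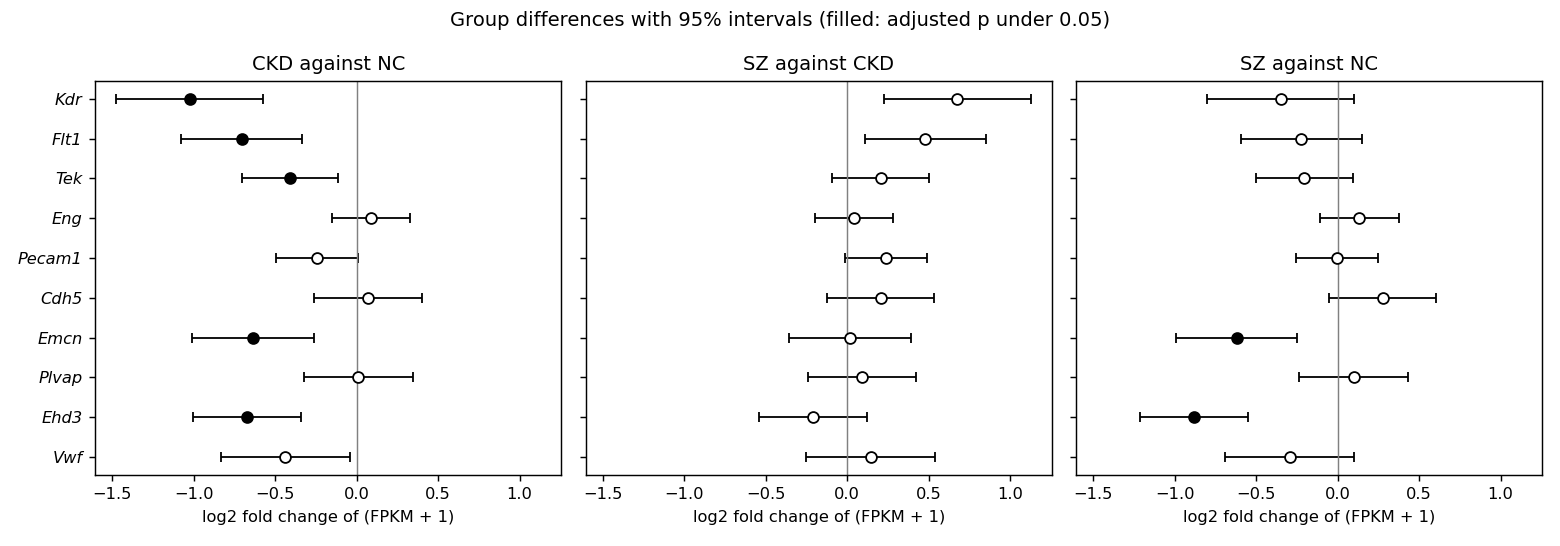
Log2 difference (horizontal axis) of each gene in CKD against NC, SZ against CKD and SZ against NC, with 95% intervals from limma and filled points where the adjusted p was under 0.05. Filled points number 5, 0 and 2.

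Ratios between genes of the same library do not depend on scaling, apart from the pseudocount. Ehd3 against Cdh5 was 1.31 ± 0.507 on the log2 scale in NC, 0.56 ± 0.599 in CKD and 0.15 ± 0.220 in SZ (mean ± SD, n = 6 each). The values were 0.65 to 1.83 in NC and -0.14 to 0.43 in SZ, without overlap. The difference of -1.16 in SZ against NC had an exact 2-sided permutation p of 0.0022, the smallest that 6 against 6 libraries can give, and 0.026 adjusted over 12 tests. In CKD 4 libraries lay between 0.62 and 1.09 and the other two, CKD 3 and CKD 4, at -0.13 and -0.23; the difference of -0.74 from NC had an exact permutation p of 0.063 (adjusted 0.25). The ratio of Kdr to Flt1 differed by -0.32 in CKD against NC (exact permutation p = 0.11, adjusted 0.31). Plvap against Cdh5 differed by -0.06 in CKD and -0.18 in SZ against NC, and Vwf against Cdh5 by -0.57 in SZ against NC (exact permutation p = 0.043, adjusted 0.25).

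**Figure D4:**
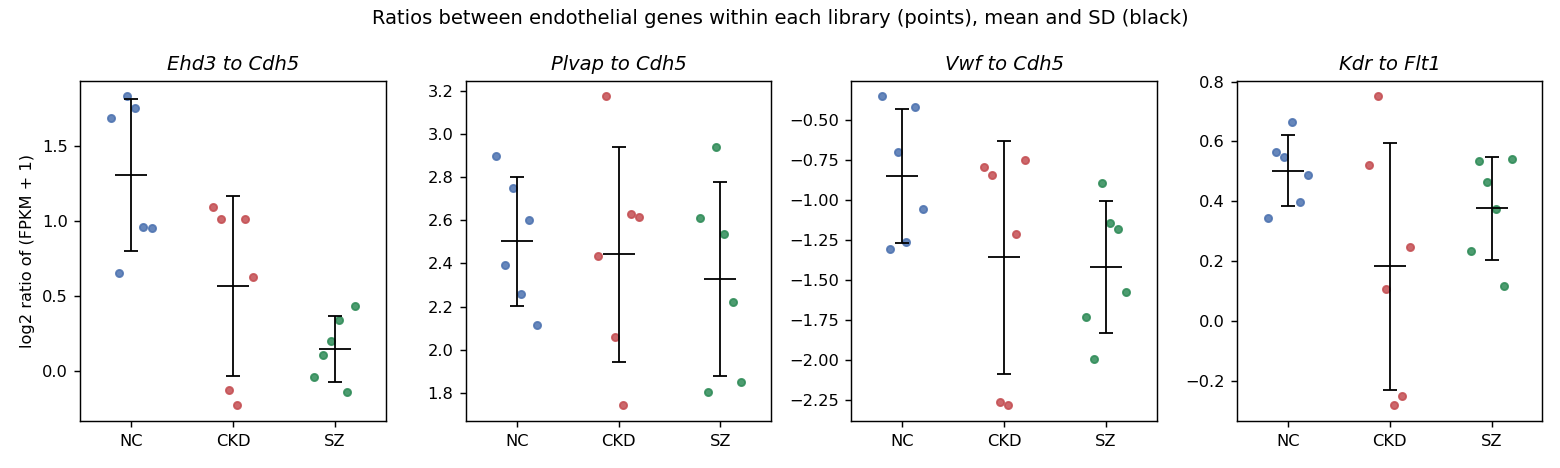
Log2 ratio (vertical axis, log scale) of 4 pairs of genes in each library by group, with mean and SD in black. The Ehd3 to Cdh5 ratio of every SZ library lies below every NC library.

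The 10 genes did not vary as a block within groups. After the group means were taken out, the median correlation over 45 pairs was 0.097 across 18 libraries, and 29 pairs were above 0. The receptors were most alike: Kdr with Tek 0.83, Kdr with Flt1 0.75 and Flt1 with Tek 0.73, against -0.52 for Pecam1 with Ehd3. These values share the library and its scaling. They also move with the slope of log2 level on gene length in each library, which was lowest in CKD 5 (-0.31 per doubling of length), SZ 3 (-0.25) and CKD 2 (-0.21). The correlation with that slope was 0.79 for Flt1, 0.63 for Cdh5, 0.51 for Tek, 0.49 for Kdr, -0.20 for Vwf, the longest of the 10, and -0.39 for Emcn, the shortest. CKD 5 had the lowest CKD value of Kdr, Flt1 and Tek, and SZ 3 the lowest SZ value. Without CKD 2, CKD 5 and SZ 3, 5 genes were again called lower in CKD against NC, and 5 were also called with a lowess correction for gene length. The genes most like the mean of the 10 over 18 libraries were Il20ra (r = 0.91), Slc43a2 (0.89), Meis2 (0.88), Epb41l3, Slc7a8 and Greb1 (0.87 each). Each was lowest in CKD, as was the mean of the 10, so this follows largely from how they were picked. Slc43a2 stood at 40.0 ± 9.31, 15.9 ± 4.60 and 29.9 ± 10.1 FPKM in NC, CKD and SZ. Il20ra was near the floor, at 1.21 ± 0.691, 0.352 ± 0.228 and 1.04 ± 0.369 FPKM.

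Among the ligands and partners of Kdr, Flt1 and Tek, 12 genes were tested. In CKD against NC 4 rose and 2 fell, with a median of 0.05, beside 24.4% of all genes higher and 26.0% lower. Under TPM scaling 6 rose and 1 fell, where 83.7% of all genes called were higher. Vegfa, the ligand of both VEGF receptors, fell from 51.7 ± 6.88 to 29.3 ± 8.46 FPKM (log2 difference -0.84, limma, adjusted p = 2.7e-04) and stood at 35.3 ± 3.11 in SZ (0.31 against CKD, adjusted p = 0.20). Pgf, a ligand of Flt1 but not of Kdr, rose from 0.364 ± 0.226 to 2.14 ± 0.891 FPKM (1.17, limma, adjusted p = 6.7e-05) and fell by 0.92 in SZ against CKD (adjusted p = 0.0092). Angpt2, the antagonist ligand of Tek, rose from 1.97 to 3.50 FPKM (0.60, limma, adjusted p = 0.0014), while Angpt1, the agonist, had 9.68 ± 3.94 in NC and 7.33 ± 1.79 in CKD and was not called. Vegfc, a ligand of lymphatic vessels, rose from 2.80 to 4.03 (0.38, adjusted p = 0.016). Vegfb (18.3 and 15.7 FPKM), Nrp1 (27.6 and 24.0), a VEGF co-receptor, and Tie1 (17.4 and 19.6), the partner receptor of Tek, were not called. Outside the rule for naming genes, Nrp2, also a VEGF co-receptor, rose (1.14) and Ptprb, the phosphatase that acts on Tek, fell (-0.57); both were named after their values were seen.

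Endoglin acts with the receptor encoded by Acvrl1. Of 8 tested genes of that pathway 2 rose and 0 fell in CKD against NC, with a median of -0.11. Over all genes 24.4% were higher and 26.0% lower, so the share that rose was near that of all genes. Under TPM scaling 4 rose (median 0.29) and under plain totals 3 (median 0.18). The medians of all genes were then 0.37 and 0.25, and 83.7% and 77.6% of all genes called were higher. Acvrl1 rose from 6.96 ± 0.781 to 9.39 ± 2.14 FPKM (0.36, limma, adjusted p = 0.017) and Id3, a target, rose from 55.0 ± 15.7 to 84.2 ± 18.1 (0.62, adjusted p = 0.0066). In SZ against CKD 2 fell, beside 6.82% of all genes lower. They were Id3, by 0.84 (adjusted p = 0.0093, limma), and Id1, by 0.82 (adjusted p = 0.042, limma), to 21.1 ± 8.24 FPKM.

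The wider endothelial list had more genes that rose than fell. Of 20 tested pan-endothelial genes 6 rose and 1 fell in CKD against NC, with a median of 0.14. Over all genes 24.4% were higher and 26.0% lower. In SZ against CKD 0 of the 20 were called by limma, beside 11.0% of all genes. Fli1, an ETS factor, rose from 5.14 ± 0.832 to 9.52 ± 1.80 FPKM (0.77, limma, adjusted p = 8.5e-05). Adgrf5, an adhesion receptor, was the one that fell, from 33.4 ± 6.07 to 11.7 ± 5.08 (-1.55, adjusted p = 4.0e-04). Nos3, the endothelial nitric oxide synthase, stood at 2.70 ± 0.575 and 3.13 ± 0.472 FPKM and was not called. Under TPM scaling 15 rose and 1 fell, and under plain totals 12 rose and 1 fell. Nos3 and Tie1 were then called higher. Of all genes called under these scalings, 83.7% and 77.6% were higher.

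Differences between the lists of vessel segments were not tested. Over all genes 24.4% were higher and 26.0% lower in CKD against NC. Of 7 glomerular genes 2 rose and 1 fell in CKD against NC: Pi16 rose from 1.23 to 9.01 ± 7.24 FPKM (1.95, limma, adjusted p = 2.9e-05) and Plat, tissue plasminogen activator, from 41.9 to 58.5 (0.46, adjusted p = 0.011), while Nostrin fell. Pi16 and Plat both fell in SZ against CKD, by 1.20 (adjusted p = 0.018) and by 0.53 (adjusted p = 0.026, 0.075 without CKD 2, CKD 5 and SZ 3, and 0.058 scaled without the 20 most abundant genes). Of 8 arterial genes Sema3g fell from 79.5 to 39.2 FPKM (-1.06, limma, adjusted p = 0.0017), Gja5 fell and Gja4, a connexin, rose (0.74, adjusted p = 0.0019). Of 4 venous and peritubular genes Aplnr rose (0.64, adjusted p = 0.0054) and Igfbp3 fell (-1.08, adjusted p = 0.028, lost under TPM scaling at 0.15 and plain totals at 0.099). Of 7 lymphatic genes 5 were tested, and 4 rose and 0 fell, with a median of 0.94. Lyve1 went from 2.78 to 6.34 FPKM (0.94, limma, adjusted p = 2.0e-05) and Mmrn1 from 0.855 to 3.05 (1.12, adjusted p = 6.8e-06). Mmrn1 fell by 0.84 in SZ against CKD (adjusted p = 0.0040). Prox1 and Reln were too low to be tested. Prox1 stood at 0.714 ± 0.181 FPKM in NC and 0.321 ± 0.363 in CKD, and Reln at 0.389 ± 0.139 and 0.948 ± 0.479. Under TPM scaling 4 glomerular genes rose and 0 fell, 3 arterial genes rose and 1 fell, 3 venous and peritubular genes rose and 0 fell, and 5 lymphatic genes rose. Of all 7860 genes called under that scaling, 83.7% were higher. Nostrin, Gja5, Prox1 and Reln were named after their values were seen.

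Genes of endothelial activation and haemostasis mostly rose. Of 11 tested, 6 rose and 1 fell in CKD against NC, with a median of 0.73, beside 24.4% of all genes higher and 26.0% lower. Icam1, a leukocyte adhesion molecule, rose from 8.06 ± 1.63 to 34.0 ± 9.87 FPKM (1.92, limma, adjusted p = 2.5e-07) and stood at 25.1 ± 6.06 in SZ (-0.40 against CKD, adjusted p = 0.16). The gene that fell, Esm1, went from 16.9 to 6.96 FPKM (-1.28, adjusted p = 0.0015), and it was named after its values were seen. Icam1 is also made by other cells of an injured kidney.

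**Figure D5:**
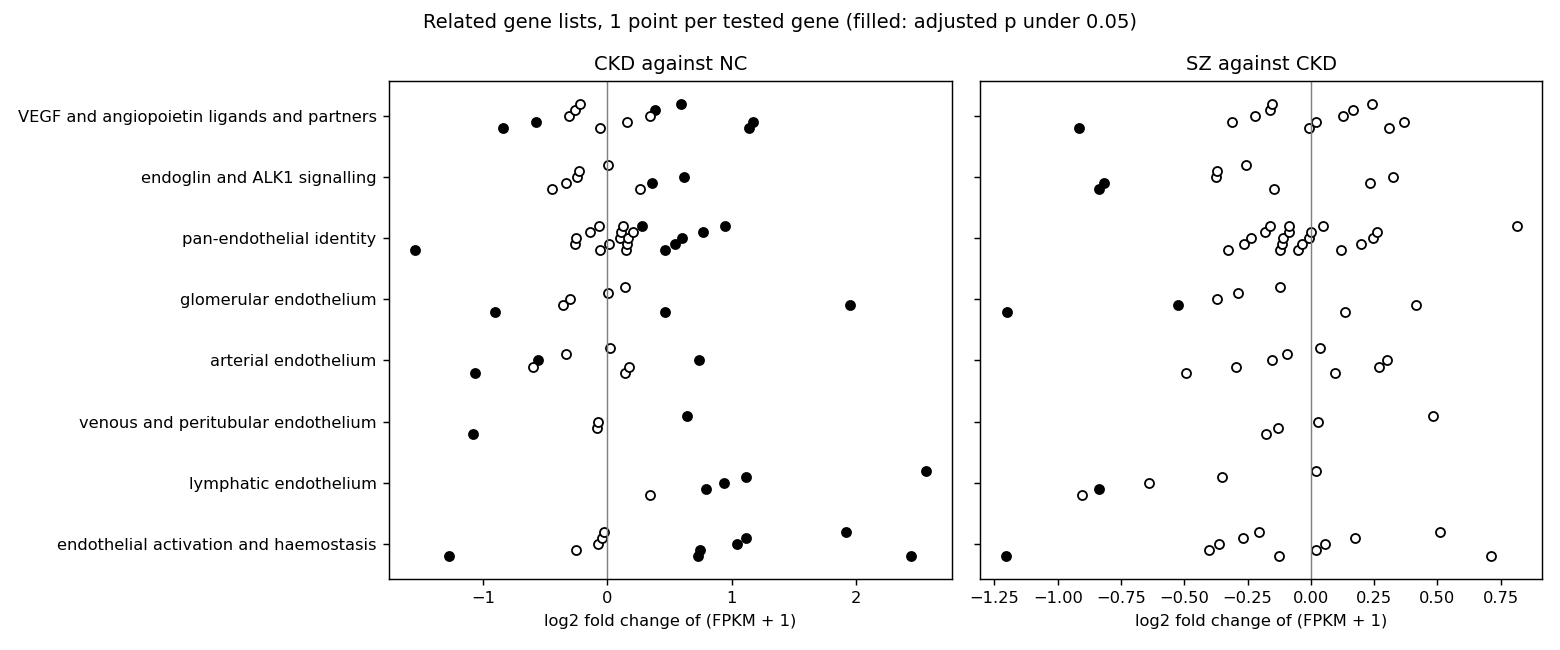
Log2 difference (horizontal axis) of each tested gene of 8 related lists in CKD against NC and SZ against CKD, with filled points where the limma adjusted p was under 0.05. The lymphatic and activation lists have filled points mostly to the right in CKD against NC.

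Markers of other cells changed in the same libraries. Over all genes 24.4% were higher and 26.0% lower in CKD against NC. In SZ against CKD 4.16% were higher and 6.82% lower. The leukocyte list had 10 of 10 genes higher in CKD against NC, with a summed level of 112 to 213 FPKM in NC, 977 to 2080 in CKD and 414 to 935 in SZ; Ptprc, the pan-leukocyte marker, rose from 1.44 to 5.61. Leukocytes also make Pecam1 and Fli1, and fibroblasts can make Eng; 6 of 6 fibroblast genes rose, from 48.2 to 153 FPKM in NC to 328 to 861 in CKD. Of 10 mural genes 6 rose and 1, Myh11 (named after its values were seen), fell, with 81.8 to 112 FPKM in NC, 174 to 428 in CKD and 108 to 201 in SZ. Of 9 tested podocyte genes 7 fell in CKD against NC, and 4 fell under TPM scaling, where 83.7% of all genes called were higher. The summed level of the podocyte genes was 203 to 324 FPKM in NC, 116 to 217 in CKD and 101 to 224 in SZ. Of 8 platelet genes, 4 were tested; Pf4 rose from 2.47 to 17.2 FPKM and Itga2b (named after its values were seen) fell, while Gp1bb was listed at 0 in all 18 libraries and Ppbp at 0 in most. Of 8 proximal tubule genes 7 fell in CKD against NC and 7 rose in SZ against CKD, with a summed level of 3789 to 4548 FPKM in NC, 824 to 2398 in CKD and 2400 to 3805 in SZ, and the mitochondrial share of reads was 14.7 to 24.1%, 5.86 to 16.0% and 11.1 to 18.4%. The part of these other cells in the levels of Pecam1, Eng, Ehd3, Vwf, Vegfa, Lyve1 and Pi16 was not tested.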

How the data were processed

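RNA from rat kidneys was sequenced in 18 libraries (Trizol extraction and an Illumina TruSeq kit, per the labels' protocols). The authors deposited 1 table of FPKM values, aligned with HISAT2 2.0.5 to mRatBN7.2 per the submitters' processing notes. The sources used here do not give the counting program or its strand setting, so overlapping and antisense genes cannot be told apart. FPKM multiplied by gene length gave whole reads for 100% of nonzero values (tolerance 0.01). The size the authors divided by averaged 0.896, 1.14 and 1.04 of the recovered total in NC, CKD and SZ.

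Genes with FPKM of at least 1 in at least 6 libraries were tested (13851, with 18265 set aside). The fit was made in limma 3.58.1 (R 4.3.3) on log2(FPKM + 1), as 1 trended model of 3 group means. Tests were 2-sided, and p-values were adjusted by Benjamini-Hochberg over all genes tested in each comparison. A call is an adjusted p under 0.05. Fold changes on this scale understate those of low genes. Ratios were put to exact permutation tests. Every adjusted p of a single gene is from limma.

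The members and the 14 gene lists (142 symbols, 140 matched) were chosen with earlier results of these data known. All 10 members are named, with 8 ligands and partners whatever their values. From each related list up to 2 called genes with the smallest adjusted p in CKD against NC, and up to 2 in SZ against CKD, are named, and the 6 genes most like the mean of the members. A few list genes that the rule takes are not reported here. Alternatives covered the pseudocount, filters, scaling, gene length, voom, left-out libraries and a replicate block.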

Additional observations from a re-analysis of the deposited data

How the results depend on the processing

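Kdr in CKD against NC and Ehd3 in SZ against NC were called under all 29 alternatives, at -1.14 to -0.65 and -1.0 to -0.61. The number of the 10 genes called in CKD against NC was 5, and it was 3 under TPM scaling, 2 under plain library totals, 4 without the 20 most abundant genes (where Tek was lost) and 4 to 7 when single libraries were left out (Pecam1 and Vwf gained without NC 4, Pecam1 without CKD 3, Vwf without CKD 6). In SZ against CKD it was 0, and it was 1 with a mean FPKM of at least 5, 1 with voom, 2 without CKD 2, CKD 5 and SZ 3, and 0 to 2 when single libraries were left out. In SZ against NC it was 2, and 1 under plain totals; under TPM scaling it was again 2, with Emcn lost (-0.33, adjusted p = 0.105, limma) and Eng gained as higher (0.44, adjusted p = 0.044). The median of the 10 in CKD against NC moved to -0.058 under TPM scaling, -0.14 under plain totals and -0.28 with the length correction. In SZ against NC it moved to 0.068 under TPM scaling and -0.017 under plain totals. The median of all genes in SZ against NC was then 0.24 and 0.15. Each cause was not tested beyond the setting changed.

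Replicate numbers are shared by the groups, but not every same-numbered pair deviated together (1, 0 and 3 of 6 pairs were over 0.1): correlations ran from -0.048 to 0.23 in CKD against NC, -0.36 to 0.037 in SZ against CKD and -0.019 to 0.21 in SZ against NC, and 1 of 18 libraries correlated best with its own number. With the replicate block 1 gene, Kdr (adjusted p = 0.047, limma), was called in SZ against CKD; the other counts stayed at 5 and 2. For the ratio of Ehd3 to Cdh5 in SZ against NC, the replicate block gave -1.16 (exact sign-flip p = 0.03125, the smallest that 6 pairs allow, so it could not pass after adjustment, at 0.33), the data without CKD 2, CKD 5 and SZ 3 gave -1.17 (adjusted p = 0.052, exact permutation), and leaving out single libraries gave -1.29 to -1.05, with an adjusted p of 0.026 without any NC library and 0.052 without any SZ library (exact permutation).

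The fall of Tek in CKD against NC turned to 0.0061 under TPM scaling. The other changes of sign were in differences that were not called. In CKD against NC TPM scaling gave Pecam1 0.20, plain totals Pecam1 0.088, the length correction Plvap -0.0076, and the data without 3 libraries Plvap -0.086. In SZ against CKD TPM scaling gave Emcn -0.13, Eng -0.10 and Plvap -0.055, plain totals Emcn -0.11, Eng -0.082 and Plvap -0.036, and the length correction Vwf -0.029. In SZ against NC TPM scaling gave Pecam1 0.30, Flt1 0.054 and Tek 0.081, plain totals Pecam1 0.20, the scaling without the 20 most abundant genes Pecam1 0.11, voom Pecam1 0.0087 and the data without 3 libraries Pecam1 0.0033. Leaving out single libraries gave Cdh5 -0.040 to 0.14 and Plvap -0.067 to 0.084 in CKD against NC, Emcn -0.12 to 0.13 and Eng -0.013 to 0.086 in SZ against CKD, and Pecam1 -0.067 to 0.052 in SZ against NC. The ratio of Plvap to Cdh5 ran from -0.21 to 0.080 in CKD against NC and from -0.26 to 0.030 in SZ against CKD, and Vwf to Cdh5 from -0.25 to 0.060 in SZ against CKD. The alternatives for the related lists were chosen after seeing the data.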
